A study of Mus musculus with 3 samples.

Results

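Spp1, Gpnmb, Trem2, Arg1, Lgals3, Ctsd, Cd36, Lpl and Apoe are 9 of the 26989 genes listed in 3 single-cell libraries of mouse skin, and they were chosen by name with values of these libraries already known. They are followed here by library within gated myeloid cells, defined by at least 1 count of Lyz2, the lysozyme gene of macrophages and monocytes, and at least 2 counts of Fcer1g and Tyrobp together, which encode adaptors of activating receptors. The gate held 99 of 6199 UV plus vitamin D cells, 580 of 5451 UV cells and 145 of 9078 control cells, or 824 of 20728 cells in all. Because the genes were selected with these values known and each group is 1 library, every ratio below is a description of these libraries, with no test across animals.

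The study took whole skin of 9-week-old C57BL/6 mice. The UV plus vitamin D library came from irradiated skin given VD, an abbreviation taken to mean the vitamin D named in the title. The UV library came from irradiated skin given saline, and the control library from unirradiated skin given saline. Cells were prepared with a Singleron GEXSCOPE kit, which marks the transcripts of each captured cell with a cell barcode. The UV dose, the time of sampling and the number of animals behind each library are not given in the sources used here.

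Macrophages that take up lipid and dying cells after tissue injury often switch on a shared group of genes. Trem2 is a surface receptor for lipids and lipoproteins that signals through Tyrobp, one of the genes used for the gate. Spp1 (osteopontin) is a secreted matrix protein that binds integrins and Cd44, and Gpnmb is a transmembrane glycoprotein of lysosomes and melanosomes. Cd36 is a scavenger receptor for oxidised lipoproteins and fatty acids, Lpl is the lipase that frees fatty acids from lipoproteins, and Apoe carries cholesterol out of cells. Ctsd is a lysosomal aspartic protease, Lgals3 (galectin 3) binds sugars on damaged membranes and dying cells, and Arg1 (arginase 1) turns arginine into ornithine in macrophages of wound repair and in differentiating epidermis. The label of a lipid-associated repair macrophage set was set against the cells that held the counts. For Arg1, Lgals3, Ctsd and Apoe most counts lay outside the gate, largely in keratinocytes. Most Gpnmb counts also lay outside it in every library, and most Spp1 and Lpl counts did in UV plus vitamin D and control. The set is therefore called the 9 genes below.

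Libraries held 50610389 to 79450666 counts in the cells kept, with a median of 6822.5 to 9301 counts per cell. In the gate the totals were 611393 counts in UV plus vitamin D, 3588019 in UV and 813595 in control, and the median cell held 4993, 4689 and 4699 counts in these libraries. Gated cells were 1.60% [1.30, 1.94] of UV plus vitamin D cells, 10.6% [9.83, 11.5] of UV cells and 1.60% [1.35, 1.88] of control cells. Levels are given as CPM, a gene's summed counts per 1000000 counts of the same cells, and brackets hold exact 95% intervals, binomial for shares, Poisson for CPM and conditional for ratios. They cover counting error only, and would be too narrow if the deposited counts are reads; the sources used here do not say whether they are reads or molecules. The UV and control libraries shared 55 barcodes, UV plus vitamin D and UV 37, and UV plus vitamin D and control 66, and 1 barcode was shared within the gates of UV and control.

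Markers of other cells stood in the gate beside those of macrophages. Summed CPM of 14 resident macrophage markers was 11368 in UV plus vitamin D, 9603 in UV and 10551 in control, with 0 of the 14 at 0 counts in any library. Summed CPM of 8 monocyte markers was 98.1 in UV plus vitamin D, 1222 in UV and 111 in control. Ly6c2, a marker of that list, had 0 counts in the gates of UV plus vitamin D and control. Summed CPM of 7 suprabasal keratinocyte markers was 15883 in UV plus vitamin D, 13416 in UV and 8666 in control. Cells that met a keratinocyte list (at least 3 of its markers at 2 or more counts each) were 33.3% of the UV plus vitamin D gate, 33.8% of the UV gate and 36.6% of the control gate, and held 48.4%, 47.3% and 49.9% of the gate's counts. Summed CPM of 7 fibroblast markers was 126, 1676 and 258 in the gates of UV plus vitamin D, UV and control, and that of 4 haemoglobin genes was 3322, 171 and 72.5. That of 11 dendritic markers was 14842, 16015 and 14995 in the same gates, of which H2-Aa alone gave 6531, 7253 and 6648. Gated cells that met the dendritic list were 68, 377 and 107. The resident macrophage list was met by 86, 429 and 126 cells, and the Langerhans list by 6, 9 and 12. Counts of keratinocyte markers were not limited to the keratinocyte-marked cells. Krtdap had a count in 100%, 98.6% and 99.3% of gated cells in UV plus vitamin D, UV and control, and Krt10 in 87.9%, 84.8% and 91.7%. Leaving out keratinocyte-marked cells therefore does not clear the gate of such counts. The part of these other cells in the ratios was not tested, except where a ratio without keratinocyte-marked cells is given.

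In UV over control, 4 of the 9 genes were at least 1.5-fold higher in the gate (Spp1, Gpnmb, Trem2 and Lpl), where 32.3% of all 8743 genes with at least 20 counts were, and 1 was at least 1.5-fold lower (Cd36), where 10.2% of all genes were. UV plus vitamin D over UV had 2 of 9 higher (Arg1 and Cd36), against 13.1% of 8685 genes, and 4 were lower (Spp1, Gpnmb, Trem2 and Lpl), against 25.9%. For UV plus vitamin D over control, 7 of the 9 passed the minimum of 20 counts; 2 of them were higher (Arg1 and Lpl), against 18.6% of 5315 genes, and 0 were lower, against 10.9%. Since the genes were chosen with these contrasts known, nothing is read from the counts. The first 2 comparisons share the UV library, so a high value there makes a gene high in the one and low in the other. The median log2 ratio of all genes tested in the gate was 0.26 in UV over control, -0.12 in UV plus vitamin D over UV and 0.09 in UV plus vitamin D over control, and the median of the 9 genes was 0.43 (Gpnmb at its bound), -0.43 and 0.21 (8 with a ratio) in the same comparisons.

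**Figure D1:**
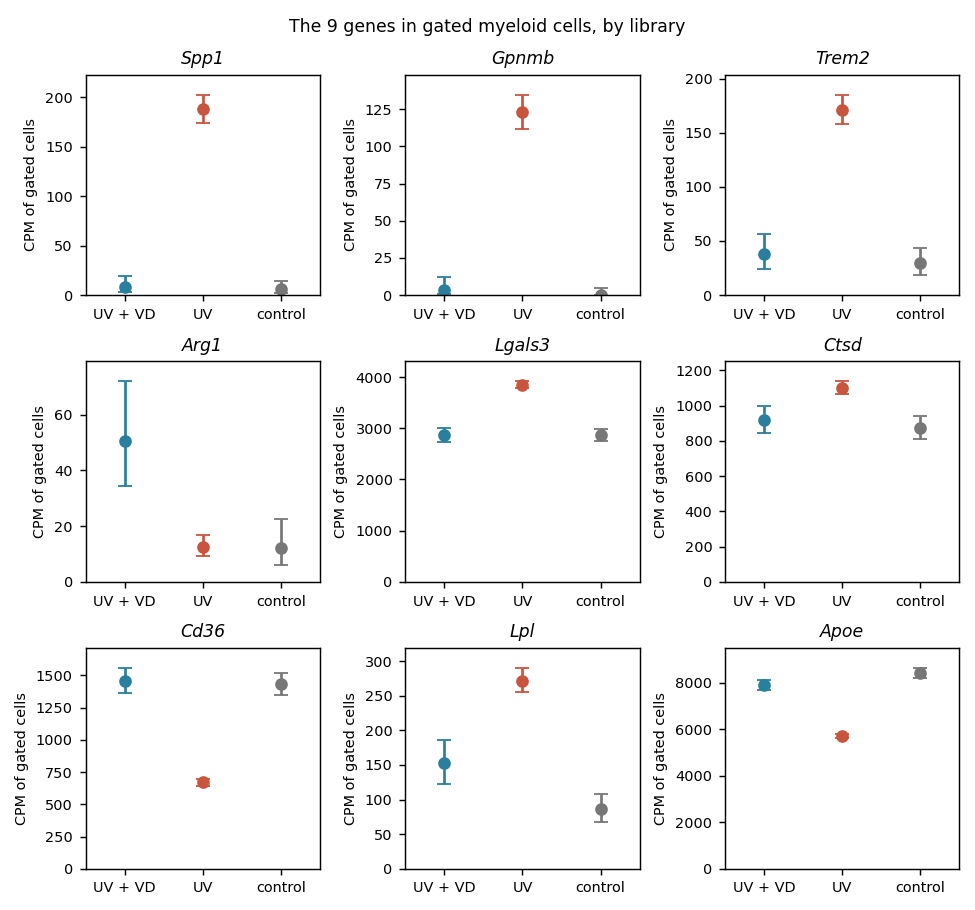
CPM of each of the 9 genes in gated myeloid cells (vertical axes, each from 0) for the UV plus vitamin D, UV and control libraries (1 library each); bars are exact 95% Poisson intervals for counting error. Spp1, Gpnmb, Trem2 and Lpl stand highest in UV, Cd36 and Apoe stand lowest in UV, and Arg1 stands highest in UV plus vitamin D, where 61.3% of its counts came from 1 cell.

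Spp1, Gpnmb and Trem2 had the highest UV over control ratios of the 9 genes in the gate. UV was also the high library for them over all cells outside the gate. Ratios there were 29.9 [15.4, 66.6] for Spp1, 21.9 [18.9, 25.4] for Gpnmb and at least 21.2 for Trem2. UV levels outside the gate were 3.42, 54.8 and 0.808 CPM for these genes, and the part of the mix of cells was not tested. The promoters of these 3 genes are shown because the genes were high in the same library. The RefSeq table used here has promoter windows for 7 of the 9 genes, and each window below runs from 250 bases before the annotated start to 30 bases after it, on the plus strand of GRCm38.p6. These are chr5:104434861-104435140 for Spp1 (the upstream of 2 starts listed), chr6:49036268-49036547 for Gpnmb and chr17:48346151-48346430 for Trem2. Capitals mark matches, on either strand, to 4 short motifs: the E-box CACGTG, the AP-1 site TGANTCA, the TATA box TATAAA and the Ets-type GAGGAAG, none of which overlap in these windows.

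Spp1 promoter: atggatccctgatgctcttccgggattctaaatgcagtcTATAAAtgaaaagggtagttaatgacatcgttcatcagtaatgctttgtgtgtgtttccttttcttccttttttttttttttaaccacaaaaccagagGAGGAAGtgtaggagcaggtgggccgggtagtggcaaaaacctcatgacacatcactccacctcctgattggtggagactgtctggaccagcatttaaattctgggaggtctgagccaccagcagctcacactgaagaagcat

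Gpnmb promoter: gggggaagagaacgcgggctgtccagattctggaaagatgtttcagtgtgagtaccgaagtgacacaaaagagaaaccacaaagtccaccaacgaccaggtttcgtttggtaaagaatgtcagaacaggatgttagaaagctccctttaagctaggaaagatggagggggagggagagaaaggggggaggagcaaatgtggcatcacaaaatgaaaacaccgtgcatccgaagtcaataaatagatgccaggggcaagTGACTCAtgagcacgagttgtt

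Trem2 promoter: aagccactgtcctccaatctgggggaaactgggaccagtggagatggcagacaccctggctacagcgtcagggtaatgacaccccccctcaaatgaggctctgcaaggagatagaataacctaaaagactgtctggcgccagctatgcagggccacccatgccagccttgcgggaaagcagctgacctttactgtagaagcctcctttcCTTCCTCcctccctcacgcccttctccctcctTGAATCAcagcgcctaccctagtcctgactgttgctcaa

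In the full windows of 300 bases, the AP-1 letters were found in Gpnmb, beginning 8 bases after the start, and in Trem2, beginning 9 bases before it, and in 7.81% of 32851 windows of all genes. The GAGGAAG letters were found in Spp1, 113 bases before the start, and in Trem2, 41 bases before it, and in 13.6% of all windows. TATAAA was found in Spp1, 211 bases before the start, and in 13.6% of all windows, and CACGTG in none of these 3 and in 7.15% of all windows. These matches describe the letters only.

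Spp1 had 5 counts (8.18 CPM [2.66, 19.1]) in the UV plus vitamin D gate, 675 (188 CPM [174, 203]) in the UV gate and 5 (6.15 CPM [2.0, 14.3]) in the control gate. The UV interval does not overlap the other two, which overlap each other. UV over control was 30.6 [13.1, 94.6], and UV plus vitamin D was 23.0-fold lower [9.81, 71.1] than UV. The size of the first ratio is poorly fixed, since 4 of the 5 control counts lay in 1 cell: it was 142 without the top cell of each library and 12.3 with 10 CPM added to both levels. Spp1 was found in 4.04% [1.11, 10.02] of UV plus vitamin D gated cells, 20% [16.8, 23.5] of UV gated cells and 1.38% [0.167, 4.89] of control gated cells. With each cell thinned to 2800 counts, which left out 0 gated cells, the shares were 4.04%, 15.3% and 0.690% in the same libraries. In T and NK cells, some of which can make Spp1 when activated, the shares were 4.08% [0.498, 14.0], 2.29% [0.475, 6.55] and 2.06% [0.251, 7.25] in UV plus vitamin D, UV and control, at a median of 7959, 3921 and 7327 counts per cell. The UV gate share lay above that of its lymphocytes, and the UV plus vitamin D and control gate shares overlapped theirs.

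Gpnmb had 2 counts (3.27 CPM [0.396, 11.8]) in the UV plus vitamin D gate, 441 (123 CPM [112, 135]) in the UV gate and 0 in the control gate, which allows up to 3.69 CPM at a limit of 3 counts. Only UV stood above the level that these few counts allow. Against that limit UV was at least 33.3-fold higher than control, with an exact interval that starts at 27, and UV plus vitamin D was 37.6-fold lower [10.3, 311] than UV. Cells with a Gpnmb count were 2.02% [0.246, 7.11] of the UV plus vitamin D gate, 17.9% [14.9, 21.3] of the UV gate and 0 of 145 cells of the control gate, with an upper bound of 2.51%. Thinned shares were 2.02%, 13.8% and 0% in these libraries, and T and NK cells held Gpnmb in 0%, 2.29% and 2.06% of cells.

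Trem2 had 23 counts (37.6 CPM [23.8, 56.4]) in UV plus vitamin D, 614 (171 CPM [158, 185]) in UV and 24 (29.5 CPM [18.9, 43.9]) in control. Its counts were spread over more cells than those of the other genes of the 3: its 10 highest UV cells held 16.1% of its counts, against 38.8% for Spp1 and 42.0% for Gpnmb. UV over control was 5.80 [3.86, 9.12], UV plus vitamin D was 4.55-fold lower [3.0, 7.23] than UV, and UV plus vitamin D over control was 1.28 [0.688, 2.36]. Trem2 was found in 18.2% [11.1, 27.2], 40.9% [36.8, 45.0] and 14.5% [9.19, 21.3] of gated cells in UV plus vitamin D, UV and control, or 12.1%, 31.9% and 8.28% after thinning. Of T and NK cells, 0 of 49, 0 of 131 and 0 of 97 in these libraries held a Trem2 count.

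Without the keratinocyte-marked cells, a choice made after seeing the data, UV over control in the gate was 18.9 [7.33, 69.9] for Spp1, at least 20.4 for Gpnmb, 5.50 [3.39, 9.52] for Trem2 and 3.83 [2.80, 5.36] for Lpl. These 4 genes stood at least 1.5-fold higher there too, and Lgals3 joined them at 1.65 [1.54, 1.76], so that the count was 5 in place of 4, where 39% of the 6662 genes tested in these cells were higher. Cd36 was the 1 gene lower there, at 0.449 [0.413, 0.490], where 12.9% of genes were lower.

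**Figure D2:**
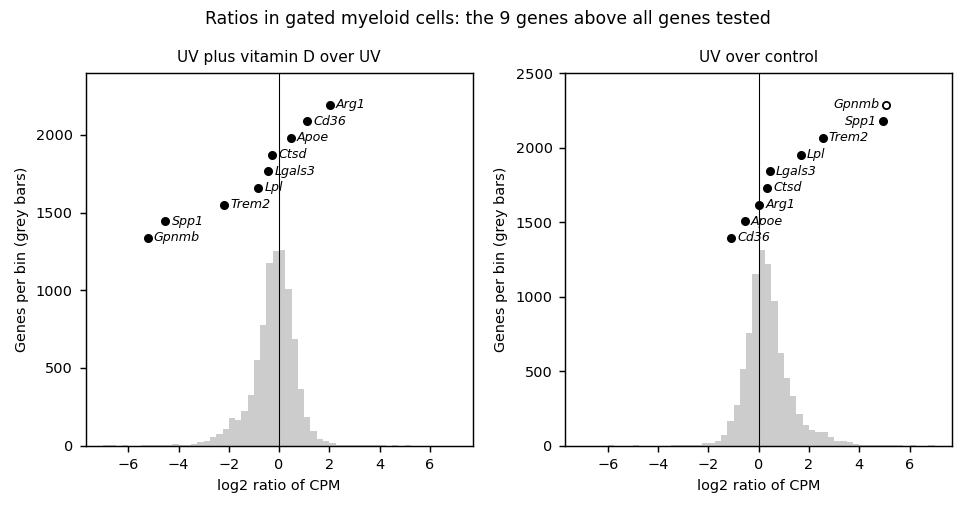
Log2 ratio of CPM in the gate (horizontal axes) for UV plus vitamin D over UV and for UV over control; grey bars count all genes with at least 20 counts per bin, and points are the 9 genes, stacked in order above the bars (the open point is a lower bound against a limit of 3 counts). Spp1, Gpnmb and Trem2 lie far from the bulk of genes, and so does Cd36, on the opposite side. Arg1 lies far from the bulk in UV plus vitamin D over UV. Lgals3, Ctsd and Apoe lie within it, and both panels share the UV library.

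The 3 genes were found together in UV cells. Of the 580 gated UV cells, 191 (32.9%) held counts of 1 of Spp1, Gpnmb and Trem2, 91 (15.7% [12.8, 18.9]) of 2 and 28 (4.83% [3.23, 6.90]) of all 3. Of the UV plus vitamin D gate, 24 of 99 cells held 1 of them and 0 held more, which allows up to 3.66%; in control, 23 of 145 cells held 1 and 0 held more, which allows up to 2.51%. After thinning, 64 UV cells held 2 of the genes and 16 held all 3, against 0 and 0 in both other libraries. Those 0 values add little to the shares of single genes. Gpnmb was in 0 control gated cells, so all 3 could not be found together there, and Spp1 was in 2. In UV plus vitamin D, Spp1 was in 4 gated cells and Gpnmb in 2. The number of such cells to be met by chance was not computed. The median UV cell with all 3 genes held 4598 counts, that with 2 held 4219, that with 1 held 5229 and that with 0 held 4688.5. The part of depth in these shares was not tested beyond the thinning, and the shares by pair of genes below were not thinned.

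**Figure D3:**
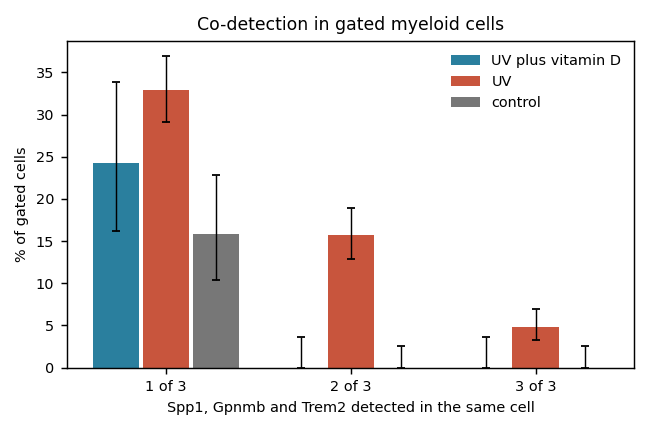
Percent of gated cells (vertical axis) with a count of 1, 2 or 3 of Spp1, Gpnmb and Trem2 (horizontal axis) in UV plus vitamin D, UV and control; lines are exact 95% binomial intervals. Cells with 2 or 3 of the genes were found in UV, at 15.7% and 4.83%, and in 0 gated cells of the other libraries. Spp1 and Gpnmb were in only 4 and 2 gated cells of UV plus vitamin D and in 2 and 0 of control.

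Within the UV gate, Trem2 was found in 68.3% [58.4, 77.1] of the 104 cells with Gpnmb and 34.9% [30.6, 39.3] of the 476 without it. Spp1 was found in 39.4% [29.98, 49.5] of cells with Gpnmb and 15.8% [12.6, 19.3] of cells without it. Lpl followed Gpnmb and Trem2: it was in 53.8% [43.8, 63.7] of Gpnmb cells against 31.5% [27.4, 35.9] of the rest, and in 48.5% [42.0, 55.1] of Trem2 cells against 26.5% [21.9, 31.5] of the rest. With Spp1 the Lpl shares were 31.9% [23.6, 41.2] with it and 36.4% [32.0, 41.0] without it, which overlap. Cells with Cd209a, a lectin gene of the dendritic list, held Gpnmb in 1.71% [0.208, 6.04] of 117 cells, against 22.0% [18.3, 26.1] of the others. Spp1 was in 5.13% [1.905, 10.8] of these cells, against 23.8% [19.95, 27.9] of the others. Of the 117 cells with Cd209a, 78 also had Mrc1, a resident macrophage marker, and no Ly6c2. Cells with C1qa, a complement gene of tissue macrophages, held Trem2 in 52.9% [47.9, 57.9], against 14.8% [9.95, 20.7] of cells without it. As a description, Pearson correlations between 28 pairs of 8 of the genes over the 580 UV gated cells ran from -0.08 (Spp1 and Cd36) to 0.56 (Ctsd and Cd36), with a median of 0.23; the cells share 1 library, and counts are sparse. Arg1 had under 50 counts and was left out of these pairs.

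Scavenger receptor Cd36 went the other way. It stood at 1456 CPM [1362, 1555] in UV plus vitamin D, 671 CPM [644, 698] in UV and 1432 CPM [1351, 1517] in control. The UV value was the low one, and the other libraries' intervals overlap. UV was 2.13-fold lower [1.99, 2.29] than control, and UV plus vitamin D over UV was 2.17 [2.01, 2.34]. Cells with a Cd36 count were 83.8% of the UV plus vitamin D gate, 43.3% of the UV gate and 80.7% of the control gate, or 78.8%, 39.7% and 77.9% after thinning, while T and NK cells held it in 2.04%, 0.763% and 0% of cells. In the UV gate, Cd36 was found in 63.3% [57.9, 68.5] of the 338 cells with Mrc1, the mannose receptor of resident macrophages, and in 15.3% [11.0, 20.5] of the 242 without it.

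The lipase Lpl stood at 152 CPM [123, 186] in UV plus vitamin D, 272 CPM [255, 290] in UV and 86.0 CPM [67.1, 109] in control. The 3 intervals do not overlap, with UV highest and control lowest. UV over control was 3.16 [2.48, 4.09], UV plus vitamin D was 1.79-fold lower [1.44, 2.24] than UV, and UV plus vitamin D over control was 1.77 [1.28, 2.45]. A single cell gave 31.2% of the Lpl counts of the UV plus vitamin D gate, and the shares of cells with a count were 20.2% [12.8, 29.5] in UV plus vitamin D, 35.5% [31.6, 39.6] in UV and 18.6% [12.6, 25.9] in control.

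The cholesterol carrier Apoe stood at 7884 CPM [7663, 8109] in UV plus vitamin D, 5695 CPM [5617, 5774] in UV and 8412 CPM [8214, 8614] in control. UV was lowest, 1.48-fold lower [1.44, 1.52] than control, and UV plus vitamin D over UV was 1.38 [1.34, 1.43]; neither reached 1.5-fold. Gated cells with neither Ly6c2 nor Mrc1 went the other way, with Apoe at 485 CPM [382, 607] in UV plus vitamin D, 2359 CPM [2270, 2452] in UV and 1518 CPM [1334, 1720] in control. UV over control was 1.55 [1.36, 1.78] in those cells, and UV plus vitamin D was 4.87-fold lower [3.87, 6.20] than UV. They were 14, 154 and 22 cells in UV plus vitamin D, UV and control, and differed in kind. Cd207, a Langerhans cell marker, was in 50%, 11.0% and 45.5% of them, and the part of this mix in the ratios was not tested. Ctsd stood at 918 CPM [843, 997] in UV plus vitamin D, 1102 CPM [1068, 1137] in UV and 874 CPM [811, 941] in control, and UV over control was 1.26 [1.16, 1.37]. That ratio is close to the median of all genes, since 54.6% of genes had a lower one. Lgals3 stood at 2862 CPM [2730, 3000] in UV plus vitamin D, 3849 CPM [3785, 3914] in UV and 2859 CPM [2744, 2978] in control; UV over control was 1.35 [1.29, 1.41], and 59.8% of genes had a lower ratio. T and NK cells of the same libraries held Lgals3 at 4134, 2599 and 3988 CPM, so in UV plus vitamin D and control the gate was below the lymphocytes.

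Arginase gene Arg1 was scarce in the gate and tied to keratinocyte-marked cells. It had 31 counts (50.7 CPM [34.5, 72.0]) in UV plus vitamin D, 45 (12.5 CPM [9.15, 16.8]) in UV and 10 (12.3 CPM [5.89, 22.6]) in control. UV plus vitamin D was the high library, with ratios of 4.04 [2.47, 6.53] over UV and 4.13 [1.97, 9.43] over control. Of those counts 30 of 31 in UV plus vitamin D, 33 of 45 in UV and 9 of 10 in control lay in gated cells that met a keratinocyte list. A single UV plus vitamin D cell held 19 of the 31, with 8.53% of its counts in suprabasal keratinocyte markers and 2 counts of Lyz2. Without the keratinocyte-marked cells, UV plus vitamin D over UV was 0.499 [0.0117, 3.38], from 1 count in UV plus vitamin D and 12 in UV. T and NK cells held Arg1 in 12.2%, 5.34% and 7.22% of cells in UV plus vitamin D, UV and control, where the gate had 7.07%, 3.28% and 3.45%, with overlapping intervals, so the gate's Arg1 shares did not stand above that of lymphocytes. Within the UV gate the 19 cells with Arg1 were not spread evenly: Arg1 was found in 8.65% [4.03, 15.8] of Gpnmb cells, against 2.10% [1.01, 3.83] of the rest.

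The gate was divided by Ly6c2 and Mrc1. Cells with Ly6c2 were 0 of 99 in UV plus vitamin D, 158 of 580 in UV and 0 of 145 in control. Cells with Mrc1 and no Ly6c2 were 85, 268 and 123 in these libraries, and cells with neither 14, 154 and 22. Thus the libraries differ in the mix of gated cells, and values within the Mrc1 cells are given beside those of the whole gate.

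Among Mrc1 cells, Spp1 stood at 8.80 CPM [2.40, 22.5] in UV plus vitamin D, 114 CPM [98.6, 132] in UV and 7.67 CPM [2.49, 17.9] in control, and UV over control was 14.9 [6.27, 46.3], against 30.6 in the whole gate. Gpnmb had 2 counts in UV plus vitamin D, 181 in UV and 0 in control, at least 23.5-fold higher in UV than in control. Trem2 stood at 48.4 CPM [30.3, 73.3], 190 CPM [169, 212] and 36.8 CPM [23.6, 54.8] in UV plus vitamin D, UV and control, with a UV over control ratio of 5.14 [3.40, 8.15]. UV was the high library for all 3 genes here too. Lpl was 3.99 [3.09, 5.25] in UV over control, and Ctsd reached 1.61 [1.48, 1.76], against 1.26 in the whole gate. Apoe was 1.28-fold lower [1.24, 1.32] in UV than in control among Mrc1 cells. The Cd36 level of UV Mrc1 cells was 1.37-fold lower [1.27, 1.47] than control, against 2.13-fold in the whole gate. Arg1 had 2 counts in UV plus vitamin D, 20 in UV and 3 in control among Mrc1 cells.

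Mrc1 was in 338 UV gated cells, and 268 had it without Ly6c2, so some Ly6c2 cells also had Mrc1. C1qa was in 67.1% [59.2, 74.3] of UV Ly6c2 cells. This contrast is thus not a clean one of monocytes against resident macrophages. UV Ly6c2 cells, set against UV Mrc1 cells of the same library, had more Spp1 (336 against 114 CPM, 2.95 [2.44, 3.56]) and more Gpnmb (201 against 108 CPM, 1.86 [1.49, 2.31]). Trem2 was at 218 CPM in Ly6c2 cells and 190 CPM in Mrc1 cells, a ratio of 1.15 [0.952, 1.39], which includes no difference. Cd36 was 5.51-fold lower [4.75, 6.43] in the Ly6c2 cells, Ctsd 2.29-fold lower [2.09, 2.51], Lpl 1.60-fold lower [1.36, 1.88] and Apoe 1.41-fold lower [1.36, 1.46]. The genes of the set thus did not move as 1 block between these cells: Spp1 and Gpnmb were higher where Cd36 and Ctsd were lower.

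**Figure D4:**
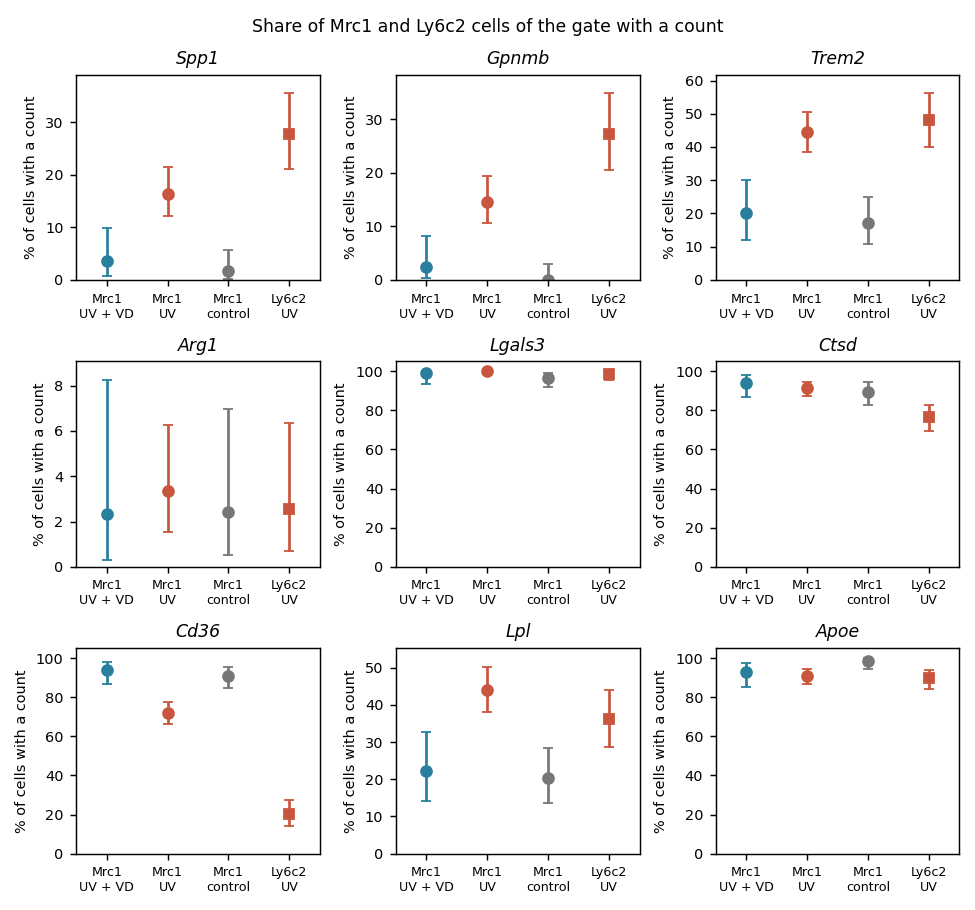
Percent of cells with a count of each of the 9 genes (vertical axes, from 0) among Mrc1 cells of UV plus vitamin D, UV and control (circles) and among Ly6c2 cells of UV (squares); bars are exact 95% binomial intervals, and Ly6c2 cells were 0 in the other libraries. Spp1 and Gpnmb were found in 27.8% and 27.2% of UV Ly6c2 cells and in 16.4% and 14.6% of UV Mrc1 cells, while Cd36 was found in 20.3% and 72.0% of the same cells. Mrc1 cells had no Ly6c2, while Ly6c2 cells could also have Mrc1.

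The cells that held each gene outside the gate were told apart by their markers, with a name given to a cell that had at least 3 markers of a list at 2 or more counts each. Trem2 was nearly confined to the gate, with 100% of 23 counts in UV plus vitamin D, 94.2% of 652 in UV and 100% of 24 in control. Cd36 followed, with 92.4% of 963 counts, 86.0% of 2799 and 86.8% of 1342 in the gate. Of the remaining UV Cd36 counts, sebocytes, the lipid-making cells of the sebaceous gland, held 7.93% of the library's total.

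Spp1 lay in the gate for 80.7% of its 836 UV counts. Of 78 UV plus vitamin D counts, 6.41% lay in the gate, 38.5% in suprabasal keratinocytes, where 63.3% of those counts came from 1 cell, 25.6% in fibroblasts, where 80% came from 1 cell, and 23.1% in myeloid cells outside the gate. Those other myeloid cells stood at 104.6 CPM [62.0, 165] in 21 UV plus vitamin D cells, 31.9 CPM [18.6, 51.0] in 102 UV cells and 0 counts in 56 control cells, so UV plus vitamin D was the high library there; 55.6% of its counts came from 1 cell. In control the whole library had 14 Spp1 counts, 5 of them in the gate. Over all cells outside the gate, UV plus vitamin D over control was 9.31 [4.64, 21.2] for Spp1, from 73 and 9 counts.

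Gpnmb had a wider spread of sources. Of 3020 UV counts 39.5% lay in 53 melanocyte-marked cells, where it stood at 2626 CPM [2479, 2779], 17.0% in fibroblasts and 14.6% in the gate. Melanocytes make Gpnmb as a melanosome protein, and melanocyte-marked cells were 1 in UV plus vitamin D, 53 in UV and 2 in control. Of the UV plus vitamin D cells, basal keratinocytes held 47.7% of 109 Gpnmb counts and fibroblasts 44.0%, and in control they held 39.1% and 45.2% of 197. In fibroblasts Gpnmb stood at 39.4 CPM [29.1, 52.3] in UV plus vitamin D, 146 CPM [133, 159] in UV and 71.5 CPM [57.4, 87.9] in control, so UV was the high library in fibroblasts, at 2.04 [1.62, 2.58] over control. Basal keratinocytes went the other way, with Gpnmb at 12.0 CPM [8.97, 15.7] in UV plus vitamin D, 6.54 CPM [4.27, 9.59] in UV and 9.83 CPM [7.76, 12.3] in control. UV plus vitamin D over UV was 1.84 [1.13, 3.06] in them, and UV over control was 0.665 [0.409, 1.05], which includes no difference. Suprabasal keratinocytes held 11.6% of the UV counts, and UV was the high library there. UV over control was 53.2 [30.7, 101] in suprabasal cells, from 349 and 13 counts, and 24.4% of the UV counts came from 1 cell. UV plus vitamin D was 90.5-fold lower [43.5, 227] than UV in them. Cells given no name had 0 Gpnmb counts in UV plus vitamin D, 309 in UV and 2 in control. Melanocyte markers were low in the gate, with summed CPM of 5 markers at 26.2, 43.8 and 8.60 in UV plus vitamin D, UV and control. In these gates 4, 0 and 4 of the 5 markers were at 0 counts. Yet Dct, the most widespread of them, was in 7.07%, 12.6% and 3.45% of gated cells. Mlana followed, in 0%, 4.48% and 0%. The part of melanocyte transcripts in the gate's Gpnmb counts was not tested.

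Fibroblasts held 64.0% of Lpl counts in UV plus vitamin D, 29.8% in UV and 53.8% in control, and the gate 23.9%, 55.2% and 21.9%. Fibroblast Lpl stood at 205 CPM [180, 232], 150 CPM [137, 163] and 138 CPM [118, 160] in these libraries, with UV over control at 1.08 [0.910, 1.29]. That interval includes no difference in fibroblasts, whereas the gate ratio was 3.16; the difference between these ratios was not tested.

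Keratinocytes held most of 4 genes. Suprabasal keratinocytes had 97.3%, 92.98% and 98.5% of Arg1 counts in UV plus vitamin D, UV and control, at 85.6, 86.5 and 85.9 CPM, and UV over control was 1.01 [0.963, 1.05]. Lgals3 lay in suprabasal cells for 94.4%, 79.9% and 92.3% of its counts in UV plus vitamin D, UV and control, and stood at 4306, 3832 and 4768 CPM there. Its UV over control ratio in suprabasal cells was 0.804 [0.799, 0.809], opposite to that in the gate. Ctsd lay there for 92.5%, 63.4% and 89.7% of counts, at 352, 434 and 304 CPM, with UV over control at 1.43 [1.40, 1.46]. Apoe was shared between suprabasal cells (52.0%, 35.7% and 52.5% in UV plus vitamin D, UV and control), basal cells (31.2%, 22.8% and 30.6%) and the gate (9.13%, 21.2% and 8.32%). In basal keratinocytes Apoe stood at 3799 CPM [3741, 3857] in UV plus vitamin D, 5541 CPM [5468, 5615] in UV and 3216 CPM [3177, 3256] in control, highest in UV, where the gate was lowest. In sebocytes it was at 8784, 9775 and 8258 CPM in these libraries, a level of the same order as in the gate.

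**Figure D5:**
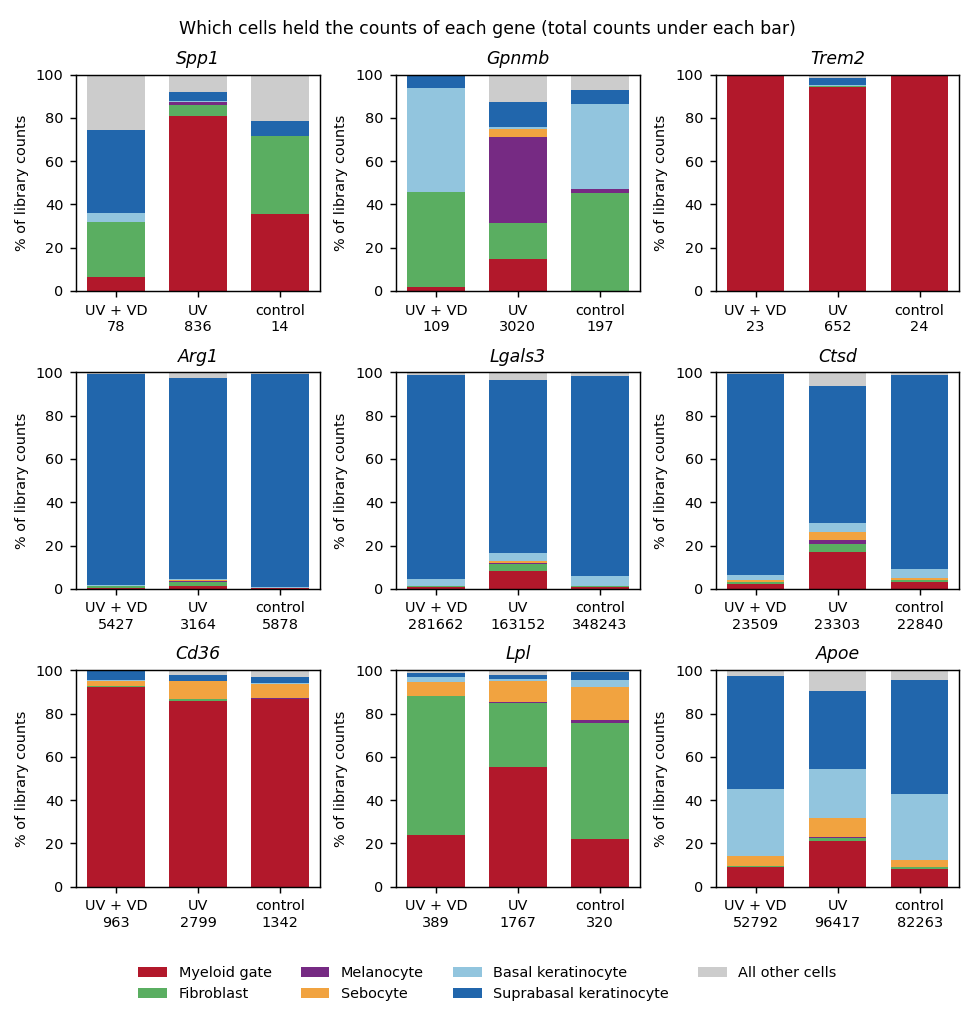
Share of each gene's counts (percent of the library's counts of that gene, vertical axes from 0 to 100) by the cells that held them, for UV plus vitamin D, UV and control; the number under each bar is the gene's total count. Trem2 and Cd36 lie mostly in the gate in all 3 libraries, Spp1 and Lpl mostly in the gate in UV only, Gpnmb mostly outside it, and Arg1, Lgals3 and Ctsd mostly in suprabasal keratinocytes.

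Genes of the same pathways, from lists chosen with earlier results of these data known, were read in the gate as counts against the same background as the 9 genes. Among 37 measured genes of lysosome and lipid handling, UV over control reached 1.5-fold upward for 19 and downward for 3, where 32.3% and 10.2% of all genes did; the median log2 ratio was 0.86, against 0.26 for all genes tested. Those named by rank were Nr1h3, the nuclear receptor LXR alpha, with 58 counts in UV and 1 in control (13.2 [2.27, 528]), and Fabp4, a fatty acid binding protein, at 77.2 and 6.15 CPM (12.6 [5.32, 39.0]). At the other end Lipa, the lysosomal lipase, was at 246 CPM in UV and 450 CPM in control (1.83-fold lower [1.61, 2.06]), and Mitf, a regulator of lysosome genes, was at 22.0 and 35.6 CPM. UV plus vitamin D over UV had 3 of 37 higher and 16 lower, against 13.1% and 25.9% of all genes (median log2 -0.48, against -0.12). UV plus vitamin D over control had 3 of 29 higher and 1 lower, against 18.6% and 10.9% of all genes (median 0.17, against 0.09). Fabp4 stood at 9.81 CPM in UV plus vitamin D and Nr1h3 at 0 counts there. Fabp4 is also an adipocyte marker. Of the other markers of that list, Adipoq, Plin1 and Plin4 were at 0 counts in all 3 gates, and Cfd had 2 counts in UV. The source of the Fabp4 counts was not tested.

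Partners of Trem2 and the Ms4a membrane proteins were measured for 7 of 7 genes, of which 4 were higher and 0 lower in UV over control, where 32.3% and 10.2% of all genes were. Ms4a6c was at 163 CPM in UV and 28.3 CPM in control (5.77 [3.81, 9.17]) and Ms4a7 at 976 and 374 CPM (2.61 [2.32, 2.95]), while the kinase Syk, downstream of Tyrobp, was at 122 and 166 CPM (0.737 [0.607, 0.901]) and the phosphatase Inpp5d at 47.4 and 38.1 CPM (1.24 [0.844, 1.89]). The same list had 0 of 7 higher and 4 lower in UV plus vitamin D over UV, against 13.1% and 25.9% of all genes.

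Osteopontin receptors counted 4 of 7 higher and 0 lower in UV over control, where 32.3% and 10.2% of all genes were. The integrin genes Itgb5 (27.3 CPM in UV and 8.60 CPM in control, 3.17 [1.48, 8.10]) and Itgav (49.1 and 27.04 CPM, 1.81 [1.16, 2.97]) had the highest ratios of those with at least 50 counts, and Itgb1 (0.895 [0.749, 1.07]) and Itga4 (1.08 [0.588, 2.14]) the lowest. These receptors had 0 of 7 higher and 1 lower in UV plus vitamin D over UV, against 13.1% and 25.9% of all genes.

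Enzymes around arginine had 2 of 4 measured genes higher and 1 lower in UV over control, where 32.3% and 10.2% of all genes were. Ass1, which makes argininosuccinate, was at 59.6 CPM in UV and 4.92 CPM in control (12.1 [4.67, 44.9]), and Odc1, which turns ornithine into putrescine, at 142 and 24.6 CPM (5.76 [3.69, 9.51]). Sat1, which acetylates polyamines, was at 1177 CPM in UV and 1924 CPM in control (1.63-fold lower [1.54, 1.73]), and Srm, the spermidine synthase, at 13.9 and 19.7 CPM (0.709 [0.397, 1.33]). Ass1 had 1 count in UV plus vitamin D, 36.5-fold lower [6.48, 1447] than UV. Nos2, the competing enzyme for arginine, had 0 counts in UV plus vitamin D, 1 in UV and 0 in control.

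Lipoprotein receptors and lipase partners had 3 of 6 measured genes higher and 0 lower in UV over control, where 32.3% and 10.2% of all genes were. Lrp1, a receptor for Apoe, was at 148 CPM in UV and 47.9 CPM in control (3.09 [2.23, 4.39]), and Apoc1, an apolipoprotein, at 179 and 204 CPM (0.880 [0.741, 1.05]). Of 10 glycolysis and hypoxia genes, 3 were higher and 0 lower, a share near the 32.3% of all genes that were higher. Vegfa, the vascular growth factor, was at 144 and 72.5 CPM (1.99 [1.52, 2.65]) and Pgk1 at 27.6 and 16.0 CPM (1.73 [0.965, 3.36]), while the glucose transporter Slc2a1 was at 41.0 and 60.2 CPM (0.680 [0.489, 0.960]) and Hif1a at 101 and 114 CPM (0.883 [0.701, 1.12]). Against UV, UV plus vitamin D had 1 of 6 lipoprotein genes higher and 2 lower, and 1 of 10 glycolysis and hypoxia genes higher and 5 lower, against 13.1% and 25.9% of all genes.

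Over the 580 UV gated cells, the genes most like the mean of the set (8 of the 9 genes, without Arg1) were the cathepsin Ctsb (r = 0.76), the lysosomal protein Cd68 (r = 0.67), the protease Lgmn (r = 0.63), the cathepsin Ctsl (r = 0.63) and the complement gene C1qc (r = 0.61), of 5773 genes with at least 50 counts. The cells share 1 library and its differences in depth, so these values are descriptions. In the gate, Ctsb stood at 3759 CPM in UV plus vitamin D, 4548 CPM in UV and 4255 CPM in control, and Lgmn at 860, 1454 and 750 CPM.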

How the data were processed

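The 3 libraries, 1 per group, were analysed from the deposited tables, which give whole-number counts for every gene in every barcode. Per the submitters' processing notes, the authors used FastQC, fastp, STAR and featureCounts with the build GRCh38; 97.6% of the listed symbols are in a mouse gene table, so no coordinates are given for the counts. Barcodes with fewer than 200 genes or more than 20% mitochondrial counts were left out (34, 35 and 17 for few genes and 1, 16 and 3 for mitochondrial counts in UV plus vitamin D, UV and control). No doublets were removed. The 9 genes, the gate and all lists were chosen with earlier results of these data known. Named genes were the 9, the 2 highest and 2 lowest UV over control ratios per list with at least 50 counts, and the 5 genes most correlated with the set. A gene that this rule names is not reported here. CPM, ratios and intervals were computed here with Python 3.11.15, numpy 2.4.6, scipy 1.17.1 and pandas 2.3.3; a 0 was set against 3 counts, and a fold needed 20 counts over both libraries. The ratios were tested on simulated data. Counts of genes without a replicate check carry no p. Alternatives covered the gate, cell filter, thinning, scaling, pseudocount and threshold. Promoters came from RefSeq.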

Additional observations from a re-analysis of the deposited data

Results flagged for a closer look

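For Lgals3, Cd36 and Apoe, the ratio between libraries lay on opposite sides of 1 in the gate and in all other cells. These contrasts were not tested, since each library is 1 sample, and every ratio is that of the sums of 1 pair of libraries. In UV over control, the CPM ratio of Lgals3 was 1.35 in the gate and 0.722 outside it, that of Cd36 was 0.468 and 3.70, and that of Apoe was 0.677 and 1.68. In UV plus vitamin D over UV, the ratio of Lgals3 was 0.744 in the gate and 1.29 outside it, that of Cd36 was 2.17 and 0.128, and that of Apoe was 1.38 and 0.433. Outside the gate Cd36 was low, at 1.07 CPM in UV plus vitamin D, 8.34 CPM in UV and 2.25 CPM in control. The part of the mix of cells in these opposite ratios was not tested.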

How the results depend on the processing

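No paired analysis was possible because each group is 1 library. Of the 4 genes higher in UV over control, the ratios kept their call under every alternative run, from 12.3 to 142 for Spp1, 13.3 to 35.3 for Gpnmb, 4.59 to 6.67 for Trem2 and 2.94 to 5.12 for Lpl; the 142 came from leaving out the cell with most Spp1 counts, which held 4 of 5 control counts. Cd36 ran from 0.425 to 0.640. In UV plus vitamin D over UV, the number of genes at least 1.5-fold higher was 1 (Cd36) in place of 2 with the stricter gate, without T, NK or mast cell markers, in all Mrc1 cells, without keratinocyte-marked cells and with thinned cells. Arg1 turned there to 0.695, 0.890, 0.334 and 0.499 in the first 4 of these. In UV plus vitamin D over control, that number was 1 in place of 2 with the stricter gate, in all Mrc1 cells, without cells of other lineages, without keratinocyte-marked cells, without the top cell and with thinned cells (Lpl left), and 1 at 2-fold (Arg1 left). Arg1 turned to 0.714 with the stricter gate and 0.735 without T, NK or mast cell markers. The UV gate share was 8.81% with the stricter gate and 9.59% without T, NK or mast cell markers. The gates without other lineages, keratinocyte-marked cells or Ly6c2 cells were chosen after seeing the data. Of the ratios of the 9 genes, 231 moved by less than their interval, 71 by more, and 6 turned; the cause was not tested. Depth limits Spp1 and Gpnmb in UV plus vitamin D and control, with 5 counts or fewer.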
